A study of Mus musculus with 4 samples.

Results

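The proteasome and ubiquitin system genes were taken by symbol as the protein-coding mouse genes whose names begin with Psma to Psmg and a digit, Ube2, Usp and a digit, Cul and a digit, or Fbxo and a digit. They numbered 187 of 21900 protein-coding genes in the reference table. The rule used names and no binding values. It also took in Psmc3ip, Psme3ip1 and Usp6nl, which match the pattern without being members of the named families, so 184 of the 187 belong to those families. Binding of the SP/KLF zinc finger factor Sp9 was mapped by ChIP-seq, the sequencing of DNA pulled down with an antibody, in wild-type CD1 embryos, from which the basal ganglia had been dissected. The groups were 1 Sp9 ChIP library at embryonic day 16.5 (E16.5) and 1 at embryonic day 13.5 (E13.5), each called against an input library made without antibody. The tissue holds several cell types, and neither stage had a replicate, so no test between the stages was possible.

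Ubiquitin is passed to a protein by an activating enzyme (E1), a conjugating enzyme (E2) and a ligase (E3), and chains of it send the protein to the proteasome. The Ube2 genes encode conjugating enzymes, cullins are the scaffolds of a large class of ligases, and Fbxo proteins are the F-box receptors that bring targets to the Cul1 scaffold. Usp enzymes take ubiquitin off again. The proteasome itself has a barrel-shaped core of alpha (Psma) and beta (Psmb) subunits and a regulatory cap of ATPase (Psmc) and non-ATPase (Psmd) subunits. Psme proteins activate the core, Psmf1 restrains it and Psmg chaperones help to build it. Dividing and differentiating neural cells use this system to remove cell cycle regulators and to remodel growing axons and synapses.

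The deposited lists held 6022 peaks at E16.5 and 5847 at E13.5, each as a signed distance in base pairs (bp) from the transcription start site (TSS) of the genes it was assigned to on the mm9 build. They gave no height, width or read total, so depth was unknown and peak strength could not be compared. Where a list lacks a gene, no peak passed the authors' threshold there, and weaker binding remains possible. Genes missing from the authors' gene set could receive no peak, and their number was not known. Binding lists hold no expression, so the tissue could not be checked by markers. Of 12 genes of the ganglionic eminence and striatum, such as Dlx1 and Gad1, 12 at E16.5 and 10 at E13.5 had a peak within 50 kb. Over all protein-coding genes the shares were 15.1% at E16.5 and 10.8% at E13.5.

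At E16.5, 39 of the 187 proteasome and ubiquitin genes (20.9%, 95% Wilson interval 15.6 to 27.2) had an Sp9 peak within 1 kb of the TSS, here called a promoter peak, against 9.42% of all protein-coding genes. At E13.5, 28 of 187 (15.0%, 10.6 to 20.8) had one, against 4.93% of all protein-coding genes. Promoter peaks at both stages were found at 20 members (10.7%, against 3.40% of all genes). Another 19 members (10.2%, against 6.02%) had a promoter peak at E16.5 only, and 8 (4.28%, against 1.53%) at E13.5 only. The remaining 140 members had none. The intervals cover counting error over genes only, and no test was run, because the genes were chosen with results of these data known and neighbouring or related genes are not independent.

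**Figure D1:**
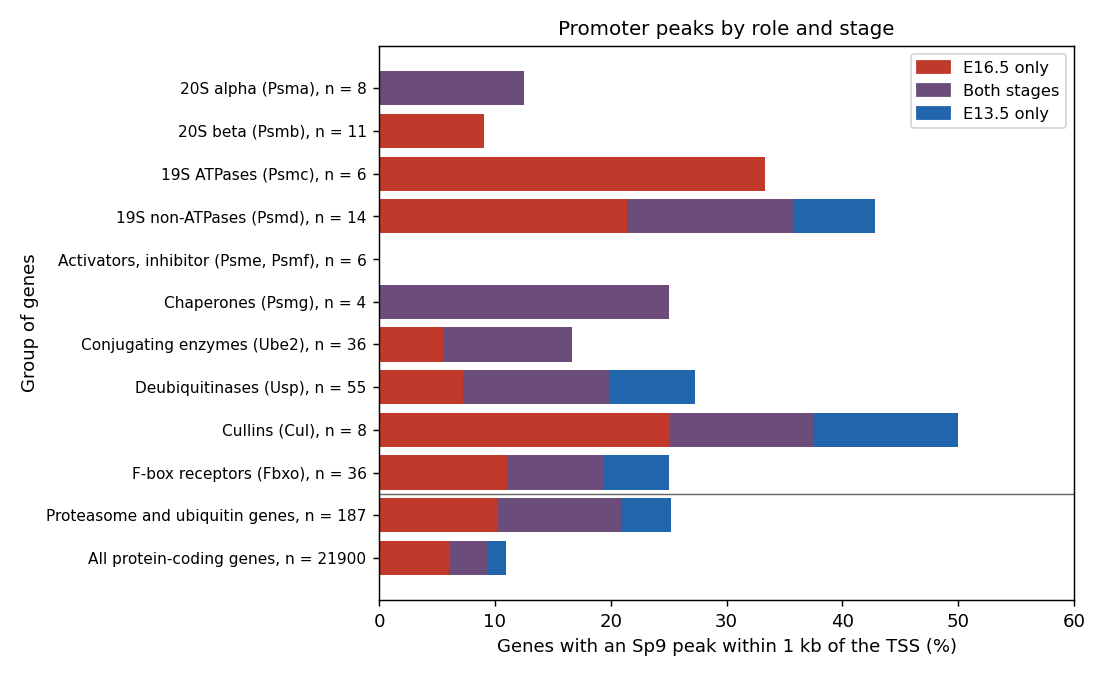
Percent of genes in each group (down the page, with n) that had an Sp9 peak within 1 kb of the TSS, divided into E16.5 only (red), both stages (purple) and E13.5 only (blue). The bar of all 187 proteasome and ubiquitin genes reached 25.1% and that of all 21900 protein-coding genes 10.9%. The 6 activator and inhibitor genes had no promoter peak, as had 89.1% of all protein-coding genes.

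Set beside all genes, the members' peaks lay more often at the promoter. Of the 82 gene-peak assignments of members at E16.5, 39 (47.6%) were promoter peaks, against 23.0% of the 9082 assignments of all protein-coding genes. At E13.5 promoter peaks were 28 of 75 (37.3%), against 11.8% of 9202. Within 50 kb the counts of members were 45 (24.1%) at E16.5 and 37 (19.8%) at E13.5, against 15.1% and 10.8% of all genes. At any distance, 58 members (31.0%, against 23.6% of all genes) were listed at E16.5 and 53 (28.3%, against 20.7%) at E13.5. Counting either stage, 72 of the 187 members (38.5%) had an assigned peak, against 28.0% of all genes, and 115 had none.

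**Figure D2:**
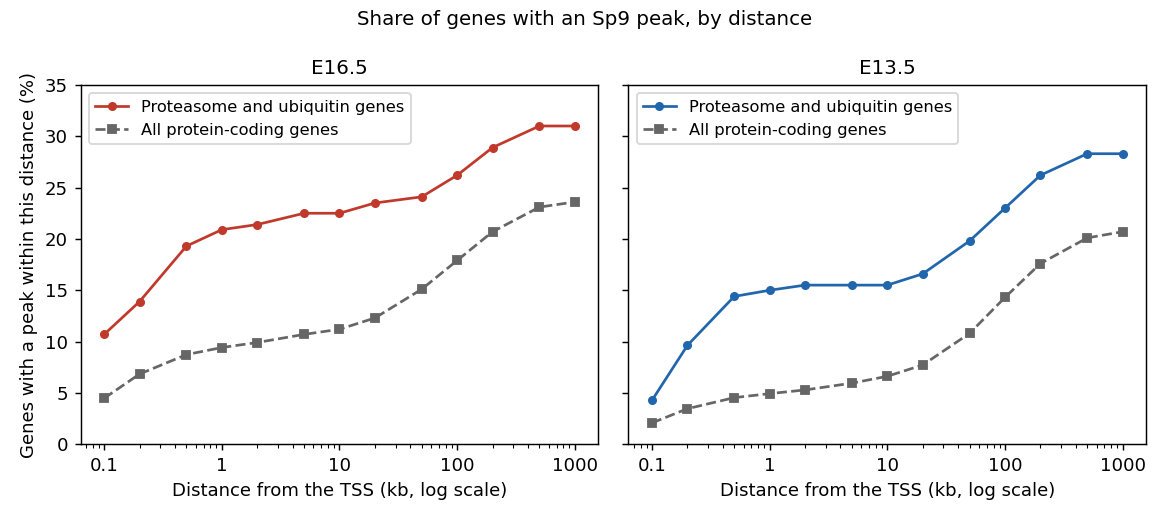
Percent of genes with at least 1 Sp9 peak within a given distance of the TSS (x axis in kb, log scale), at E16.5 (left) and E13.5 (right), for the 187 proteasome and ubiquitin genes (solid lines) and all 21900 protein-coding genes (dashed lines). The members reached 20.9% at E16.5 and 15.0% at E13.5 by 1 kb, and between 1 and 10 kb their lines were nearly flat (22.5% and 15.5% at 10 kb).

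Among the 49 proteasome genes, 10 had a promoter peak at E16.5 and 5 at E13.5, 4 of them at both. These were 20.4%, 10.2% and 8.16%, against 9.42%, 4.93% and 3.40% of all protein-coding genes. Psma2, an alpha subunit of the core, had a peak 113 bp upstream of the TSS at E16.5 and 151 bp upstream at E13.5. It was the only one of 8 Psma genes with a promoter peak. Psmd1, a scaffold subunit of the cap, had peaks 94 bp upstream at E16.5 and 113 bp upstream at E13.5. Psmd14, the deubiquitinase of the cap that strips ubiquitin from incoming proteins, had peaks 29 bp upstream at E16.5 and 130 bp upstream at E13.5. Psmg1, a chaperone that pairs alpha subunits into a ring, had peaks 28 bp upstream at E16.5 and 15 bp upstream at E13.5. These 4 genes thus had peaks at nearly the same place in both lists, at most 101 bp apart. Because their promoters held peaks at both stages, 3 of them are printed here, from RefSeq on GRCm38.p6, as the 250 bases before the outermost annotated TSS with every GC box (GGGCGG or its reverse complement CCGCCC) in capitals. They lie at chr13:14612992-14613241, plus strand, chr2:61711444-61711693, plus strand, and chr16:95990961-95991210, minus strand.
Psma2: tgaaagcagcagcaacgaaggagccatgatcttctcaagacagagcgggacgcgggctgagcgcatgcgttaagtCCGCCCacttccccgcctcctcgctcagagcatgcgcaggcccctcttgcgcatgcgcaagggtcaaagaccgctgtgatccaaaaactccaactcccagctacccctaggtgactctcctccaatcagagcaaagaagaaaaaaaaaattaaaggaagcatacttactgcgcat
Psmd14: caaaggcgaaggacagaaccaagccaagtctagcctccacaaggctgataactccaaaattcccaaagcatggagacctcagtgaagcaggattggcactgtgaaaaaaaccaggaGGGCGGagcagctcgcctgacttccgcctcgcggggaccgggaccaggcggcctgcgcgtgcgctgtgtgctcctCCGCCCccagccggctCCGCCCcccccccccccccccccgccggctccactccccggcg
Psmg1: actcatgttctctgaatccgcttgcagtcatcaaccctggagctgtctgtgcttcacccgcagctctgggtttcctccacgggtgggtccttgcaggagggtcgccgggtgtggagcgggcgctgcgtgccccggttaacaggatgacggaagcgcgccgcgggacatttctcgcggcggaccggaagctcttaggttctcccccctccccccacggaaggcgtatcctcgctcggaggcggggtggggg

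The GC box is the letter pattern that SP/KLF factors are known to bind, and 42.7% of the 17492 protein-coding genes with a RefSeq window held it in these 250 bases. Psma2 held 1 GC box, starting 175 bp before the TSS, and Psmd14 held 3, starting at 134, 59 and 43 bp. Psmg1 held none, but it held 2 copies of the related GT box (GGGTGG or CCACCC), starting at 170 and 9 bp, which 29.5% of all windows held. Psma2 also held the palindromic element of nuclear respiratory factor at 127 bp, found in 1.06% of windows, and a CCAAT box at 54 bp, found in 36.5%. Psmd14 held a CCAAT box at 159 bp. The peak distances are on mm9, so the peaks were not placed in the printed bases, and a match is a description of the letters only.

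A further 6 proteasome genes had a promoter peak at E16.5 only and 1 at E13.5 only. These were 12.2% and 2.04%, against 6.02% and 1.53% of all protein-coding genes. No promoter peak stood at the 6 cap ATPase genes or the 11 beta subunit genes at E13.5, where 4.93% of all genes had one. Counts of 0 in groups this small do not show a share below that of all genes. Psmb6, a catalytic beta subunit, had a peak 6 bp downstream of the TSS at E16.5 and was absent from the E13.5 list. The ATPases Psmc3 and Psmc2 had E16.5 peaks 23 bp downstream and 82 bp upstream. The non-ATPase cap subunits Psmd2, Psmd12 and Psmd7 had E16.5 peaks 19, 30 and 84 bp downstream. All 6 peaks were thus within 84 bp of the TSS. Psmd4, a ubiquitin receptor of the cap, had the reverse pattern, with no E16.5 peak and 1 peak 140 bp upstream at E13.5.

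Most core and cap genes had no promoter peak at either stage, as had 89.1% of all protein-coding genes. These were 7 of 8 Psma genes, 10 of 11 Psmb genes, 4 of 6 Psmc genes and 8 of 14 Psmd genes. The Psmd count includes Psmd5, Psmd9 and Psmd10, which are assembly chaperones and not cap subunits, and which were in neither list. Psmb8, Psmb9 and Psmb10, the beta subunits of the immunoproteasome, were in neither list and were singled out after their values were seen. The 6 activator and inhibitor genes, Psme1 to Psme4 with Psme2b and Psmf1, had no assigned peak at any distance. The same held for 72.0% of all protein-coding genes, and a group of 6 is too small to show a difference from that share.

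Among the 36 Ube2 genes, 6 had a promoter peak at E16.5 and 4 of these also at E13.5. The shares were 16.7% and 11.1%, against 9.42% and 4.93% of all protein-coding genes. The Ube2 genes are conjugating enzymes and close relatives, except Ube2cbp, named as a binding partner of Ube2c, which had only a distal peak. Ube2b, which works with Rad18 in the response to DNA damage, had peaks 108 bp upstream at E16.5 and 142 bp upstream at E13.5. Ube2d3, a conjugating enzyme that works with many ligases, had peaks 62 bp downstream at E16.5 and 215 bp downstream at E13.5. Ube2q1 had peaks 202 bp upstream at E16.5 and 13 bp upstream at E13.5. Ube2ql1 had peaks 23 bp downstream at E16.5 and 105 bp downstream at E13.5. It was also the only member with 3 peaks within 50 kb, but how many of all genes had as many was not counted. A peak 31429 bp upstream at E16.5 matched one 31412 bp upstream at E13.5. Another peak 44401 bp upstream was in the E16.5 list only and lay nearer to Med10 (25584 bp). In the E16.5 list alone, Ube2g1 had a promoter peak 78 bp upstream, and Ube2r2, a partner of Cul1 ligases, had one 334 bp upstream.

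Of the 55 Usp genes, the same number had a promoter peak at each stage, 11 at E16.5 and 11 at E13.5, with 7 at both. Of all protein-coding genes, 9.42% had one at E16.5, 4.93% at E13.5 and 3.40% at both. The equal Usp counts thus stand beside an all-gene share that was lower at E13.5. Usp1, which removes ubiquitin from the DNA repair proteins Fancd2 and Pcna, had peaks 272 bp upstream at E16.5 and 377 bp upstream at E13.5. Usp3, a histone deubiquitinase, had peaks 119 bp downstream at E16.5 and 8 bp downstream at E13.5. Usp12 had peaks 33 bp upstream at E16.5 and 51 bp downstream at E13.5. Usp34, an axin deubiquitinase of the Wnt pathway, had peaks 491 bp upstream at E16.5 and 413 bp upstream at E13.5. Usp25 had peaks 389 bp upstream at E16.5 and 491 bp upstream at E13.5. Usp53 and Usp32 had the largest changes of place among members with promoter peaks at both stages. Usp53 had peaks 89 bp downstream at E16.5 and 105 bp upstream at E13.5, and Usp32 32 bp downstream at E16.5 and 202 bp upstream at E13.5.

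At E16.5 only, promoter peaks lay upstream of Usp15 (152 bp), Usp20 (242 bp), Usp30 (215 bp) and Usp9x (130 bp). Usp30 is a deubiquitinase of the mitochondrial outer membrane, and Usp9x is an X-linked enzyme needed in neural development. At E13.5 only, promoter peaks lay at Usp22 (415 bp upstream), Usp31 (157 bp upstream), Usp4 (63 bp upstream) and Usp48 (81 bp downstream). Usp22 is the deubiquitinase of the SAGA coactivator complex. The 4 genes on each side left the Usp total unchanged, whereas the proteasome genes divided 6 to 1 towards E16.5. All protein-coding genes divided 1319 to 335. Each side held 7.27% of the Usp genes, against 6.02% of all genes at E16.5 only and 1.53% at E13.5 only. Whether these divisions differ was not tested.

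Of the 8 cullins, 4 had a promoter peak at 1 stage or both, where 10.9% of all protein-coding genes had one. There were 3 at E16.5 and 2 at E13.5, where 9.42% and 4.93% of all genes had one. Of the 4, 1 had a promoter peak at both stages, 2 at E16.5 only and 1 at E13.5 only. Of all genes, 3.40%, 6.02% and 1.53% did so. A group of 8 is too small to compare the stages. Cul7, a scaffold that works with the F-box protein Fbxw8, had peaks 214 bp downstream at E16.5 and 119 bp downstream at E13.5. Cul1, the scaffold of the F-box ligases, had a peak 38 bp downstream at E16.5, and its E13.5 peaks all lay 392748 bp or more upstream. Cul2, the scaffold of the von Hippel-Lindau ligase, had a peak 9 bp downstream at E16.5 and was not listed at E13.5. Cul3, the scaffold for BTB-domain receptors, had no peak nearer than 249317 bp at E16.5 and a peak 449 bp upstream at E13.5. Ube2ql1, Usp12 and Cul7 were the Ube2, Usp and Cul genes with peaks nearest the TSS at both stages among those with a RefSeq window, and their 250 bases before the TSS are printed in the same way. They lie at chr13:69739898-69740147, minus strand, chr5:146794957-146795206, minus strand, and chr17:46650088-46650337, plus strand.
Ube2ql1: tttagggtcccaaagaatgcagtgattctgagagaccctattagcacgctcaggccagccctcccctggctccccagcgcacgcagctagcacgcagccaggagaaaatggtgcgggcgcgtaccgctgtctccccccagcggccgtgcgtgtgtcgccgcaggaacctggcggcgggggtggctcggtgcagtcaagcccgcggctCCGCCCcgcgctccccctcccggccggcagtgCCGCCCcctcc
Usp12: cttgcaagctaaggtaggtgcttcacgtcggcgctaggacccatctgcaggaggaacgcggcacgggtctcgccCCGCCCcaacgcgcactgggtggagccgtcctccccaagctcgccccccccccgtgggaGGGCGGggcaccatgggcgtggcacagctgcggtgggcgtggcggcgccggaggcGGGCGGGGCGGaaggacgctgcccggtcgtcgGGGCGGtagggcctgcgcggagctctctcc
Cul7: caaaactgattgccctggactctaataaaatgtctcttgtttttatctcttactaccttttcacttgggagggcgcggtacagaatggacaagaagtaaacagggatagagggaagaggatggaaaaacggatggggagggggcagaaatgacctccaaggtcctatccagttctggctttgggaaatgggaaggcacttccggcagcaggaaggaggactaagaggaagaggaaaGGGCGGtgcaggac

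Usp12 held 5 GC boxes, of which those starting 62 and 57 bp before the TSS overlap by 1 base, Ube2ql1 held 2 (at 43 and 11 bp) and Cul7 held 1 (at 14 bp). Cul7 also held the ETS element CCGGAAGT in its reverse orientation at 54 bp, which 3.82% of windows held. The Ube2ql1 and Cul7 promoter peaks were listed downstream of the TSS at both stages, as was the Usp12 promoter peak at E13.5. The printed bases all lie before the TSS, so their motifs cannot be tied to those peaks. The GC content of the 6 printed stretches ran from 49.6% in Cul7 to 74.8% in Usp12, against a median of 55.2% over all windows, and the number of CpG dinucleotides from 5 in Cul7 to 30 in Usp12, against a median of 10. None of the 6 held the homeodomain pattern TAATTA (4.46% of windows) or TGACNNNGC, the pattern of the CNC-bZIP factors known to drive proteasome genes (10.5% of windows). The motifs were searched on both strands. A share of all members with a motif was not computed, because only 149 of the 187 (79.7%) had a window and such a check is void under 80%.

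Of the 36 Fbxo genes, 7 had a promoter peak at E16.5, 5 at E13.5 and 3 at both. These were 19.4%, 13.9% and 8.33%, against 9.42%, 4.93% and 3.40% of all protein-coding genes. Fbxo11, a receptor that marks Bcl6 for destruction, had peaks 826 bp upstream at E16.5 and 901 bp upstream at E13.5, the farthest promoter peaks of any member. Fbxo3 had peaks 204 bp downstream at E16.5 and 11 bp downstream at E13.5, and Fbxo47 had peaks 616 bp downstream at E16.5 and 495 bp downstream at E13.5. At E16.5 only, Fbxo30, Fbxo34 and Fbxo45 had peaks 1, 3 and 37 bp downstream, and Fbxo36 had one 244 bp upstream. Fbxo45 is a receptor needed for axon and synapse development. At E13.5 only, Fbxo5, an inhibitor of the anaphase-promoting complex, had a peak 334 bp upstream, and Fbxo33 had one 48 bp downstream.

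Psme3ip1 and Usp6nl, which match the naming rule without being members of the named families, had promoter peaks too. Psme3ip1 had peaks 168 bp upstream at E16.5 and 196 bp upstream at E13.5. Usp6nl had one 615 bp upstream at E16.5 only. Beyond the 1 kb limit the nearest member was Usp49, a histone deubiquitinase with peaks 1013 bp upstream at E16.5 and 1007 bp upstream at E13.5. The members just inside the limit were Fbxo11 and then Fbxo47 at each stage. The next member outside it was Fbxo24 (3920 bp) at E16.5 and Fbxo46 (11795 bp) at E13.5.

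**Figure D3:**
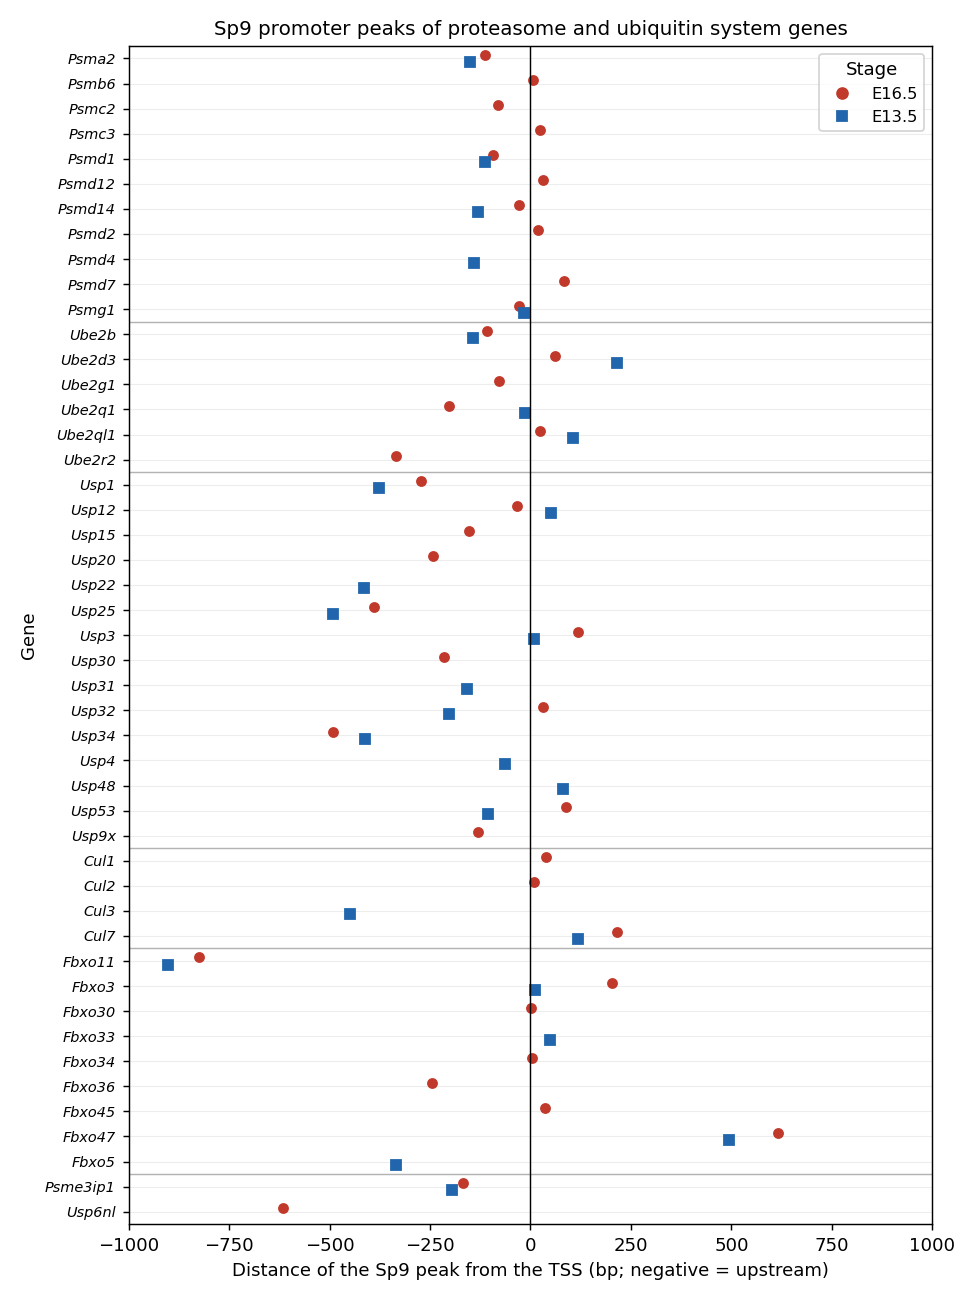
Distance in bp of each Sp9 promoter peak from the TSS (x axis, negative upstream) for the 47 members with at least 1, with E16.5 as red circles and E13.5 as blue squares; lines separate the families. The 20 genes with both symbols show them at most 234 bp apart.

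The members' promoter peaks sat close to the TSS at both stages. Their median distance was 94.0 bp at E16.5 (n = 39) and 141 bp at E13.5 (n = 28), against 111 and 126 bp for all protein-coding genes. The 19 members with a promoter peak at E16.5 only had a median of 78.0 bp, with 12 of 19 within 100 bp. The 20 members with one at both stages had a median of 116 bp at E16.5, with 8 of 20 within 100 bp. Of all 2063 genes with an E16.5 promoter peak, 982 had one within 100 bp. All genes were not divided by stage in this way, so the contrast cannot be called particular to the members. Upstream peaks made up 53.8% of the members' promoter peaks at E16.5 and 67.9% at E13.5, against 64.1% and 68.5% over all genes. These are peak centres or summits as the authors' assignment placed them, and the lists do not say which.

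Some promoter peaks were shared with the promoter of a neighbouring gene. This was so for 8 of 39 members' promoter peaks at E16.5 (20.5%, against 23.4% over all genes) and for 5 of 28 at E13.5 (17.9%, against 23.3%). The Psma2 peak lay 104 bp upstream of Mrpl32, a mitochondrial ribosomal protein gene, at E16.5 and 66 bp upstream of it at E13.5, nearer to Mrpl32 than to Psma2 in both lists. The Psmc2 peak lay 50 bp from Dnajc2, a ribosome-associated chaperone gene. The Fbxo36 peak lay 293 bp upstream of Trip12, which itself encodes a ubiquitin ligase. The other shared peaks lay at Ube2q1 with 4632404H12Rik, Usp20 with BC005624, Fbxo3 with 4931422A03Rik, Fbxo45 with Wdr53, Psme3ip1 with Rspry1 and, at E13.5 only, Usp31 with 1700069B07Rik. For these peaks the lists do not tell which gene the binding concerns.

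A promoter peak was counted as recurring where the same gene had a peak at most 200 bp away in the other list. By this measure 19 of 39 members' promoter peaks at E16.5 (48.7%, Wilson interval 33.9 to 63.8) and 19 of 28 at E13.5 (67.9%, 49.3 to 82.1) recurred, against 33.1% and 63.2% over all protein-coding genes. Usp32, at 234 bp apart, was the only member with promoter peaks at both stages that did not meet the limit. The median shift over the 20 members was 98.0 bp, against 62.0 bp over the 744 genes with promoter peaks at both stages. Within 100 bp only 10 of the members' promoter peaks recurred at each stage, so the number recurring depends on the limit.

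Beyond 1 kb, members had 43 assigned peaks at E16.5 and 47 at E13.5, and 28 of them recurred in each list (65.1% and 59.6%, against 66.3% and 57.2% over all genes). Psmd7, the structural partner of Psmd14, had the most, with 8 assigned peaks at E16.5, including its promoter peak, and 6 at E13.5, none of them at the promoter. Those 354703 bp and more upstream stretched towards Zfhx3, a zinc finger homeobox gene, and 5 of them recurred. The peak 949534 bp upstream of Psmd7 at E16.5 was only 176628 bp from Zfhx3. A peak 39715 bp upstream of Psmd7 was in the E13.5 list only. Usp25 had 4 assigned peaks at E16.5 and 5 at E13.5, and those 224613 and 277746 bp downstream at E16.5 recurred at 224712 and 277732 bp.

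Nearer to their genes, several distal peaks recurred within 100 bp. Usp3 had a peak 18878 bp upstream at E16.5 and 18838 bp upstream at E13.5. Usp42 had peaks 25879 bp upstream at E16.5 and 25906 bp upstream at E13.5. Usp28, a deubiquitinase of the DNA damage response, had peaks 12873 bp upstream at E16.5 and 12787 bp upstream at E13.5, both nearer to the serotonin receptor gene Htr3b. Fbxo46 had peaks 11739 bp downstream at E16.5 and 11795 bp downstream at E13.5. Recurring distal sites of this kind stood at genes with and without a promoter peak: Usp3 had one at both stages, and Usp42, Usp28 and Fbxo46 had none.

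Most distal peaks lay nearer to another gene than to the member, in 23 of 43 assignments at E16.5 and 25 of 47 at E13.5. Over all protein-coding genes this was so in 3194 of 6995 and 3677 of 8114, and whether the shares differ was not tested. The member was the nearest gene in 20 of 43 assignments beyond 1 kb at E16.5 (46.5%, against 54.3% over all protein-coding genes) and in 22 of 47 at E13.5 (46.8%, against 54.7%). The Usp42 peak 108458 bp downstream at E16.5 lay 1375 bp from Cyth3, and the Fbxo33 peak 88475 bp downstream lay 1487 bp from Ctage5. The Cul7 peak 4162 bp upstream at E16.5 lay 54 bp from Mrpl2, another mitochondrial ribosomal protein gene. The Ube2e1 peak 469433 bp upstream at E13.5 was the same peak as the one 92484 bp downstream of Ube2e2. Apart from Ube2e1, the members whose nearest peak was farthest were Fbxo4 (336789 bp), Usp38 (327627 bp), Ube2h (225348 bp) and Fbxo48 (189969 bp). The Fbxo48 peak lay 9230 bp from Egfr and the Ube2h peak 31160 bp from Nrf1.

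**Figure D4:**
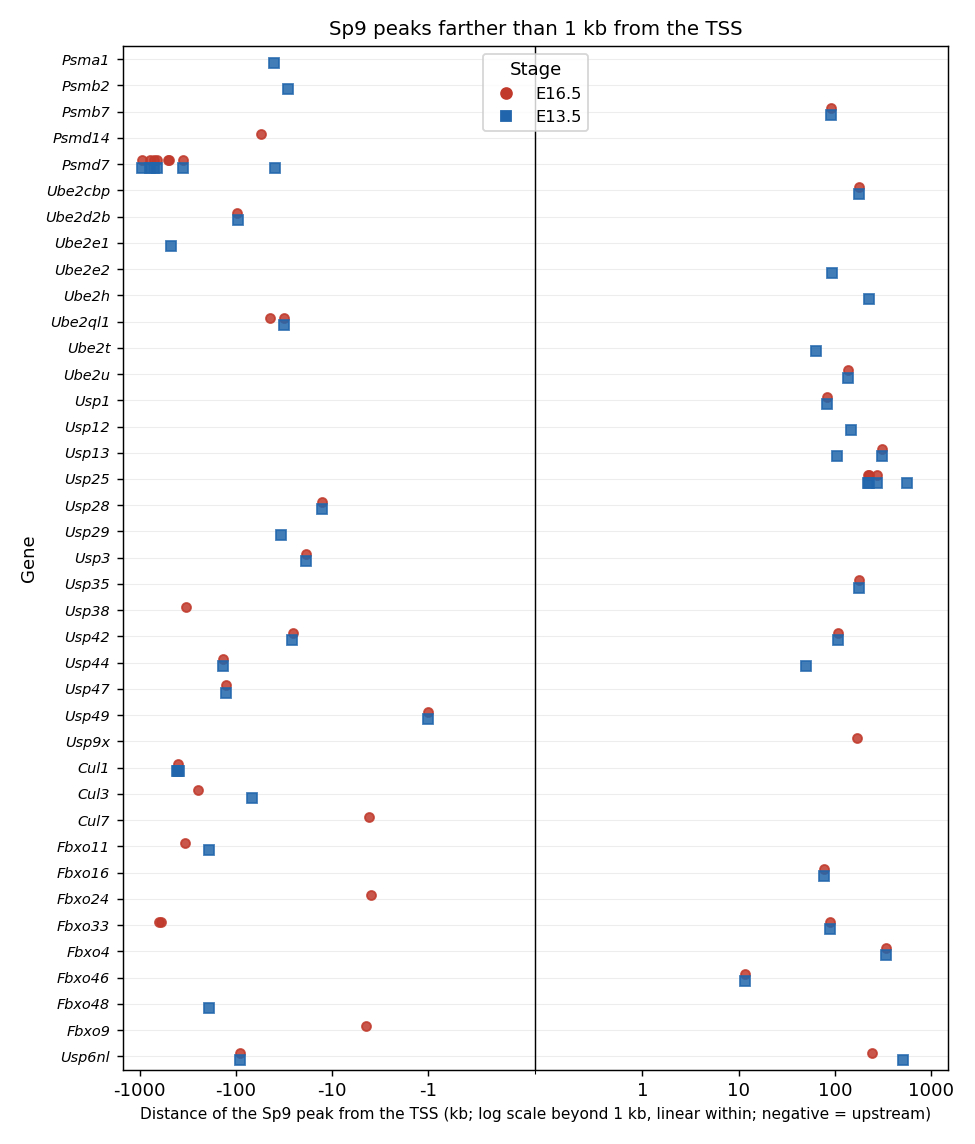
Signed distance in kb (x axis, log scale beyond 1 kb, negative upstream) of every Sp9 peak assigned to a member and lying more than 1 kb from its TSS, with E16.5 as red circles and E13.5 as blue squares. Symbols of both colours stand together at Psmd7, Usp25 and other genes, where 28 of 43 E16.5 peaks and 28 of 47 E13.5 peaks recurred.

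Other genes of the pathway, which the naming rule does not reach, were described from 8 lists of 125 genes in all. Promoter peaks stood at 37 of them (29.6%, against 9.42% of all protein-coding genes) at E16.5 and at 16 (12.8%, against 4.93%) at E13.5, with 11 at both, 26 at E16.5 only and 5 at E13.5 only. Of all protein-coding genes, 6.02% had one at E16.5 only and 1.53% at E13.5 only. The lists were small (4 to 28 genes), and their shares ran from 0.00% to 43.8% at E16.5 and from 0.00% to 21.4% at E13.5. The anaphase-promoting complex, the cullin-like ligase that ends mitosis, was the highest at E16.5. It had 7 of 16 genes at E16.5 (43.8%) and 1 of 16 at E13.5 (6.25%, against 4.93% of all genes). The subunit gene Anapc13 had peaks 41 bp downstream at E16.5 and 14 bp downstream at E13.5. Anapc2, Anapc7, Anapc10, Anapc11 and Anapc16 joined it in the E16.5 list alone, and Anapc15 had peaks 867 bp upstream at E16.5 and 1443 bp upstream at E13.5. Ligases of the HECT, RING and U-box classes had 10 of 28 genes at E16.5 (35.7%) and 6 of 28 at E13.5 (21.4%).

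At both stages, promoter peaks stood at the ligase genes Nedd4 (297 bp upstream at E16.5 and 143 bp upstream at E13.5), Ube3b (11 and 20 bp upstream), Ubr4 (158 and 192 bp upstream) and Ube4b (40 and 12 bp downstream). The proteasome-bound deubiquitinase gene Uchl5 had peaks 119 bp upstream at E16.5 and 222 bp upstream at E13.5. Ddi2, a protease that activates the transcription factor Nfe2l1, had peaks 70 bp upstream at E16.5 and 7 bp upstream at E13.5. Cops4 and Cops6, subunits of the COP9 signalosome that takes Nedd8 off cullins, had E16.5 peaks 92 and 10 bp upstream and E13.5 peaks 39 and 23 bp downstream. Kctd5, a receptor of Cul3, had peaks 33 bp upstream at E16.5 and 10 bp downstream at E13.5. Cyld, a deubiquitinase of NF-kappaB signalling, had peaks 106 bp downstream at E16.5 and 4 bp upstream at E13.5.

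Uba3, an activating enzyme subunit for the ubiquitin-like protein Nedd8, had a peak 47 bp downstream at E16.5 and was missing from the E13.5 list. In the E16.5 list alone, promoter peaks stood 177 bp upstream of the proteasome assembly factor gene Pomp and 16 bp upstream of the cap receptor gene Adrm1. Cullin partners had 6 of 25 genes at E16.5, among them the RING subunit gene Rbx1 (224 bp upstream). At E13.5 they had 3 of 25, among them Nedd8 (160 bp upstream) and the cell cycle receptor gene Skp2 (183 bp upstream). The shares were 24.0% and 12.0%, against 9.42% and 4.93% of all protein-coding genes.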

How the data were processed

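Sp9 ChIP-seq peaks of 2 libraries, 1 per stage, were described, while the 2 inputs served only the authors' calling of peaks, as file names show. BWA 0.6.2 and MACS2 2.1.0 are listed, without settings, in the submitters' processing notes, with mm9 as the build. Per the file headers, the authors assigned a peak to genes whose regulatory domain (from 5000 bp before to 1000 bp after the TSS, extended up to 1000000 bp, with curated domains) reached it. What the authors deposited has no standard unit and is text, namely peak numbers with signed TSS distances.

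Each peak number was counted once per gene. Names were matched to a RefSeq gene table (GRCm38.p6, used for names, gene type and promoter sequence) by symbol, then by a synonym of a single gene. In this way 5330 of 5463 names at E16.5 and 4698 of 4826 at E13.5 matched, and 1 member (Psme3ip1) was listed under another name. For genes with several annotated TSSs the outermost window was used. Genes were named if they had a promoter peak, 3 peaks within 50 kb, or the nearest or farthest distances, and other pathway genes if they had promoter peaks at both stages; further pathway genes and singled-out values were chosen after they were seen. The members and lists were chosen with earlier results of these data known. 1 gene matching the pattern and single values of a few other pathway genes are not reported here. Shares carry 95% Wilson intervals and no test was run. Counting was tested on simulated lists. Python 3.11.15, scipy 1.17.1, numpy 2.4.6, pandas 2.3.3 and matplotlib 3.10.9 were used.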

Additional observations from a re-analysis of the deposited data

How the results depend on the processing

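Of 48 alternative values, 46 stayed within 1.5 times the reported count or share. Promoters within 500 bp, within 2.5 kb or from 5 kb upstream to 1 kb downstream gave 36 to 42 members at E16.5 and 27 to 29 at E13.5. Keeping each peak only for its nearest listed gene left 42 members with any assigned peak at E16.5, against 58. At E13.5 it left 39, against 53. The share of all genes was not computed under that rule. The 2 exceptions were the members' promoter peaks that recur: within 100 bp, 10 recurred at E16.5 and 10 at E13.5, against 19 and 19 within 200 bp, because the limit is stricter. Without predicted genes, 10.1% of the background had a promoter peak at E16.5 and 5.28% at E13.5. The planned share of members with a GC box was void, since under 80% of them had a promoter window. No paired analysis was possible because each stage had 1 ChIP library. The lists give no peak strength, so a stricter peak threshold could not be tried, and a gene with weak binding cannot be told from a gene with none.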
